A study of Mus musculus with 12 samples.

Results

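The 10 genes described here encode the transcription factors that commit thymic progenitors to the T lineage: Tcf7, Lef1, Bcl11b, Gata3, Tox, Satb1, Zbtb7b, Ets1, Ikzf1 and Myb. They were taken as a list of gene symbols, with no measured value in the rule, and all 10 passed the low-count filter that kept 16052 of the 50600 gene IDs in the count tables. Gene-level RNA-seq counts were available for 12 mice, 3 in each of 4 groups. Ctrl mice carried a loxP-flanked Dnmt1 gene (DNMT1 fl/fl) and no Cre. KO mice were DNMT1 fl/fl CD4-CRE, so Dnmt1 was deleted in T cells from the stage at which the Cd4 promoter is active. ALK mice carried NPM-ALK, a human fusion kinase driven by Cd4 regulatory elements, and ALKKO mice carried both NPM-ALK and DNMT1 fl/fl CD4-CRE. Ctrl, KO and ALKKO samples were thymocytes and ALK samples were T-cell lymphoma cells, so the transgene and the tumor state cannot be told apart in ALK. Ages were 20 to 25 wk in Ctrl, 20 to 21 wk in KO, 22 to 31 wk in ALK and 19 to 25 wk in ALKKO, and 1 mouse, the second of the KO group (KO2), was female.

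T-lineage commitment is a relay of factors. Notch signaling in the thymus switches on Tcf7 and Gata3, these open the T-cell program, and Bcl11b then closes the progenitor and natural killer options. Ikzf1 and Myb are active from earlier blood progenitors onward, and Ets1 is needed for T-cell survival and differentiation. Satb1, Lef1, Tox and Zbtb7b shape the double-positive thymocyte and its choice between the CD4 and CD8 fates. Both Cd4-Cre and the NPM-ALK transgene act after commitment has begun.

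Library depth was 12473857 to 18864327 reads on genes, and the members had 49 to 54780 reads in a library. The genotypes were first checked at the RNA level. Dnmt1 had 400.0 to 487 CPM (TMM-scaled reads per 1e6 reads on genes) in Ctrl, 379 to 788 in ALK, 206 to 244 in KO and 205 to 244 in ALKKO. Reads assigned to mouse Alk, the gene of the kinase in the fusion, gave 34.9 to 55.0 CPM in ALK and ALKKO and 0.107 to 0.431 CPM in Ctrl and KO. All 6 thymocyte markers were detected in every group, with summed levels of 5870 to 7630 CPM in Ctrl, 3580 to 6400 in KO, 4210 to 4820 in ALK and 5750 to 6340 in ALKKO. In ALK, Cd3d was at 212, 2.27 and 13.5 CPM against 392.1 to 468 in Ctrl, and the 7 double-positive markers, of which Rag1 was listed at 0 throughout, summed to 1550 to 3320 CPM against 7360 to 8520. KO2 stood apart: its 6 B-cell markers summed to 2070 CPM against 41.2 to 86.2 in the 8 other thymus libraries, and its thymic epithelium markers to 74.3 CPM against 414 to 674. In ALK, the B-cell sum was 2.44 to 9.93 CPM, the thymic epithelium sum 7.59 to 157 and the sum of 6 stroma and endothelium markers 835 to 1450, against 224 to 315 for the latter in Ctrl. Of these 6, Col1a1 (243 to 702 CPM against 14.2 to 28.6 in Ctrl) and Col1a2 (303 to 575 against 32.3 to 47.4) were higher in every ALK mouse. The others, Pecam1, Pdgfra, Cdh5 and Kdr, overlapped Ctrl, with Pecam1 at 95.9, 128 and 247 CPM against 154 to 176. The part of cell composition in the results was not tested. In bulk samples such as these, fewer cells of a type and less RNA per cell cannot be told apart.

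DNMT1, the enzyme removed in KO and ALKKO, copies methylation at CpG dinucleotides. In KO and in ALKKO against Ctrl, 0 of 10 members were called. The members that changed most did so in ALK, where Dnmt1 was not deleted, and a part of CpG content in this was not tested. The DNA around start sites of these members is shown as a description, with each CpG in capitals. These are exon-free stretches upstream of 1 RefSeq start per gene (GRCm38.p6), each inside the annotated span of its gene and therefore intronic in the longest transcript. Methylation was not measured in the files used here. The first, Satb1 at chr17:51832673-51832818 on the minus strand, holds 25 CpG in 146 bases with a GC content of 82.9%. The second, Zbtb7b at chr3:89387672-89387921 on the minus strand, holds 5 CpG in 250 bases, and the third, Lef1 at chr3:131112541-131112790 on the plus strand, holds 6 CpG in 250 bases.
Satb1: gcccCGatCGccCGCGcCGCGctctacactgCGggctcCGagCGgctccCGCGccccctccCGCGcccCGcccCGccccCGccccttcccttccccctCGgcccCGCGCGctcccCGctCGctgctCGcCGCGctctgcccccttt
Zbtb7b: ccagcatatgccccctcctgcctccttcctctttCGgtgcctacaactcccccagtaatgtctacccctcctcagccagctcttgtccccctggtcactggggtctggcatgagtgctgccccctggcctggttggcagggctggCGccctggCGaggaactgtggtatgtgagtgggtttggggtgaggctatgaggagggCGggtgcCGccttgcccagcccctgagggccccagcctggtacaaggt
Lef1: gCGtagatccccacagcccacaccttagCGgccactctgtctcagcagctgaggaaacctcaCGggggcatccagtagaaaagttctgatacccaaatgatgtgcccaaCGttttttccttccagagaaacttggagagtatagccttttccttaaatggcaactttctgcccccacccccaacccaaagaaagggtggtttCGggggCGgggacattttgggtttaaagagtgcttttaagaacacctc
RefSeq windows of 300 bases, 250 before and 50 after a start, were held for 8 of the 10 members, 18 windows in all, and for Tox and Ets1 there was none. Over all 32851 such windows the median was 7 CpG. The counts depend on the start: the 5 windows of Satb1 held 3 to 45 CpG, the 4 of Lef1 5 to 21 and the 2 of Zbtb7b 7 and 8. The Lef1 windows with 18 and 21 CpG lay before the annotated start of the gene. Exons of another gene overlapped them, so no stretch of theirs is shown. Motifs were searched on both strands and are a description only. The GATA motif AGATAA was in 1 of the 18 member windows and in 11.18% of all windows, the TCF/LEF motif CTTTGAT in 0 and 3.73%, the ETS motif CCGGAAG in 1 and 8.86%, and the MYB motif AACGG in 3 and 17.45%. The RUNX motif TGTGGT was in 1 and 16.76%, the STAT motif TTCNNNGAA in 1 and 8.3%, and the E-box CACGTG in 1 and 7.15%.

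Per kb of exon, which allows genes to be compared, the members spanned a wide range in Ctrl thymocytes. Ets1 led with 193 ± 2.42 CPM per kb (mean ± SD, n = 3), followed by Satb1 with 145 ± 11.2 and Ikzf1 with 132 ± 6.04. Myb (94.2 ± 12), Bcl11b (81.5 ± 3.81) and Tcf7 (75.9 ± 5.03) came next. Lef1 (41.8 ± 2.32), Gata3 (21.7 ± 2.50), Tox (15.5 ± 0.714) and Zbtb7b (10.2 ± 1.59) were the lowest. The neighbors Satb1 and Ikzf1, Myb and Bcl11b, and Bcl11b and Tcf7 overlapped between mice, and the others in this order did not. By the ALK means the order differed, with Lef1 first at 125 ± 74.6 CPM per kb, Ikzf1 at 104 ± 3.83 and Ets1 at 93.6 ± 13.2. Lef1 led in ALK mice 1 and 2 (169 and 167 CPM per kb), and in ALK mouse 3 it was at 38.9, below Ikzf1 (108), Ets1 (103), Myb (82.4), Tcf7 (58.9) and Bcl11b (54.1). Satb1 stood at rank 7 of the 10 against rank 2 in Ctrl, at 28.5 ± 7.42 CPM per kb. Zbtb7b was last in every group, with 1.22 ± 0.846 CPM per kb in ALK. Exon length was the union of annotated exons, so a gene using short transcripts is understated.

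**Figure D1:**
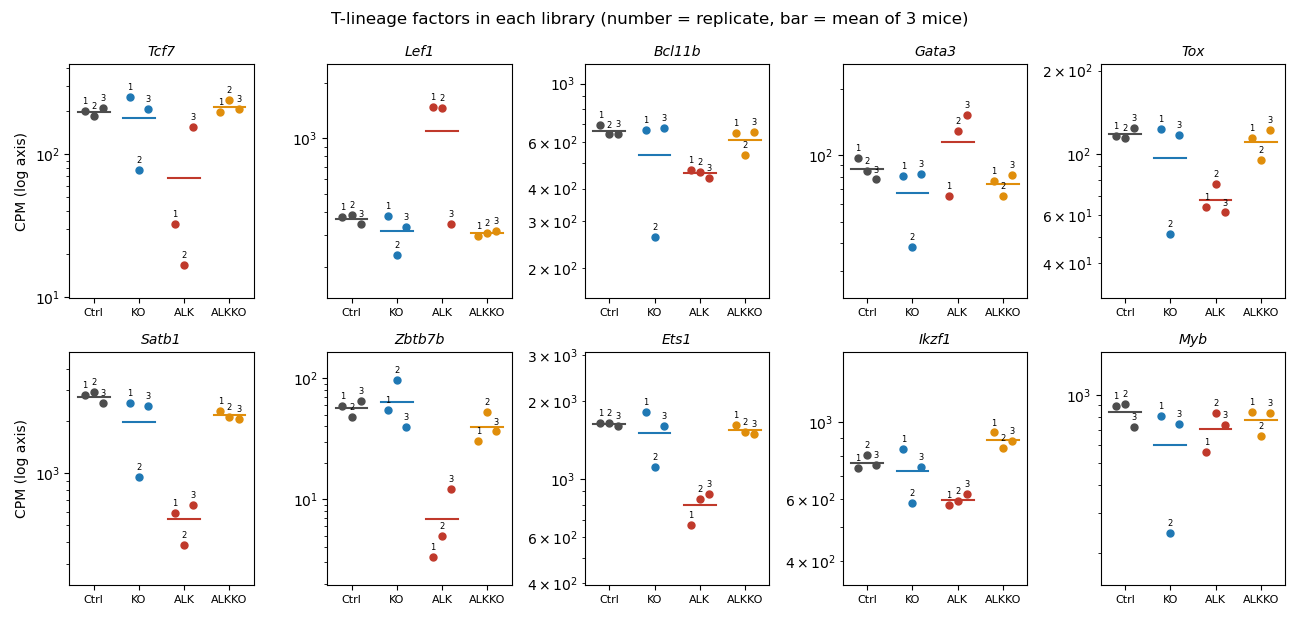
CPM of each member in each of the 12 libraries on a log axis, 1 panel per gene, with points numbered by replicate and a bar at the mean of 3 mice per group. Satb1, Zbtb7b and Ets1 are lower in every ALK library than in any Ctrl library, Tcf7 and Lef1 are split among the ALK mice, and KO2 sits below the other KO mice for every gene except Zbtb7b.

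The first question was how the commitment factors stood in ALK tumors against Ctrl thymocytes. Satb1, Zbtb7b and Ets1 fell and Lef1 rose, while the other 6 members were not called. Calls required an adjusted p under 0.05 from edgeR's quasi-likelihood test together with a change of more than 2-fold (beyond 1 or -1 on the log2 scale). The 4 of 10 members called compare with 20.4% of all genes tested, the 1 called higher with 8.41% and the 3 called lower with 12%. With the adjusted p alone, 5 members passed against 29.5% of all genes. The median log2 fold change was -0.67 over the members and 0.05 over all genes tested, and the ALK and Ctrl mice did not overlap in 7 of 10 members and in 46.4% of all genes.

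Satb1 (chr17:51736187-51833290, minus strand), the organizer that folds chromatin loops at thymocyte genes, had 2813, 2936 and 2521 CPM in Ctrl mice 1 to 3 and 589, 384 and 654 CPM in ALK mice 1 to 3. All ALK values lay below all Ctrl values. Positions are those of GENCODE M21 on GRCm38. The fall was 5.08-fold (log2 fold change -2.35, SE 0.346, adjusted p = 0.00135 by edgeR's quasi-likelihood test). Zbtb7b (chr3:89377644-89394776, minus strand), which encodes ThPOK, the factor that fixes the CD4 fate, had 58.7, 47.6 and 65.1 CPM in Ctrl and 3.29, 4.98 and 12.2 CPM in ALK. The ALK values rest on 49 to 156 reads and none reached the Ctrl range. This was the deepest fall among the members, 8.38-fold (log2 fold change -3.07, SE 0.498, adjusted p = 0.00211, edgeR). Ets1 (chr9:32636221-32757820, plus strand), an ETS factor needed for T-cell survival and differentiation, had 1642, 1646 and 1609 CPM in Ctrl and 666, 837 and 877 CPM in ALK. Ctrl mice were within 1.02-fold of each other, and all ALK mice were lower. The 2.06-fold fall (log2 fold change -1.04, SE 0.192, adjusted p = 0.00352, edgeR) stood just past the fold threshold, and without ALK mouse 1 it was -0.93 and no longer called.

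The HMG-box pair Tcf7 and Lef1, which encode TCF-1 and LEF-1 and bind the same DNA motif, divided the tumors. Lef1 (chr3:131110471-131224356, plus strand) had 373, 383 and 344.2 CPM in Ctrl and 1486, 1469 and 342 CPM in ALK. ALK mice 1 and 2 were far above Ctrl and ALK mouse 3 (ALK3) was just below it. The group was 2.99-fold higher (log2 fold change 1.58, SE 0.434, adjusted p = 0.0213, edgeR). This call was not held without ALK mouse 1 (1.31, adjusted p = 0.0533), ALK mouse 2 (1.30, 0.0728), Ctrl mouse 1 (1.57, 0.0718), Ctrl mouse 2 (1.60, 0.0646) or Ctrl mouse 3 (1.55, 0.0704), nor with only the ALK and Ctrl libraries in the fit (1.59, 0.0791). Tcf7 (chr11:52252371-52283014, minus strand) went the other way, with 202, 185 and 211 CPM in Ctrl and 32.4, 16.8 and 155 CPM in ALK. No ALK mouse reached the Ctrl range, yet ALK3 had 6.29 times the mean of the other ALK mice. The log2 fold change of -1.55 (SE 0.684, adjusted p = 0.110, edgeR) was not called. It was not called either without ALK mouse 1 (-1.22, adjusted p = 0.232, edgeR) or without ALK mouse 2 (-1.12, adjusted p = 0.211, edgeR). Without ALK3 it was -3.03 (adjusted p = 0.00226, edgeR) and was called. Tcf7 was also called by DESeq2's Wald test (-1.59, adjusted p = 0.0453) and with age as a covariate (-2.91, adjusted p = 0.0183). The other 17 of 20 alternatives did not call it. ALK3, at 31 wk, was the only mouse older than 25 wk, so the age setting is not independent of leaving ALK3 out.

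Of the remaining specification factors, Bcl11b (chr12:107910403-108003602, minus strand), the zinc finger gene that marks commitment, had 696, 641 and 645 CPM in Ctrl and 471, 462 and 439 CPM in ALK. The groups did not overlap and the ALK mice were close together, but the log2 fold change of -0.53 (95% interval -1.17 to 0.11, adjusted p = 0.188, edgeR) was not called. The fit pools the spread of all 12 libraries, KO2 among them. Its adjusted p by edgeR was 0.00513 without KO2, 0.00716 with sex as covariate and 0.0357 with only the ALK and Ctrl libraries. The log2 fold changes there were -0.56, -0.53 and -0.53, within the fold threshold. Under the other alternatives the adjusted p ran from 0.136 (DESeq2) to 0.315 (edgeR without Ctrl mouse 1). Gata3 (chr2:9857078-9890034, minus strand), a zinc finger factor of early T cells and of CD4 cells, had 97.3, 84.6 and 77.7 CPM in Ctrl and 65.7, 128 and 151 CPM in ALK. Its ALK values fell on both sides of the Ctrl range (log2 fold change 0.41, adjusted p = 0.362, edgeR). Tox (chr4:6686353-6991557, minus strand), an HMG-box factor required for CD4 T-cell development, had 116, 114 and 124 CPM in Ctrl and 64.2, 77.6 and 61.2 CPM in ALK. Every ALK mouse was lower, with a log2 fold change of -0.80 (adjusted p = 0.0484, edgeR) that did not pass the fold threshold. Leaving out any 1 Ctrl or ALK mouse took its adjusted p to 0.0630 to 0.116. By edgeR it was also 0.0666 with the replicate block and 0.109 with age as covariate. With sex as covariate it was 0.00194, and with only the ALK and Ctrl libraries 0.0165 (edgeR).

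The members that act from blood progenitors onward, Ikzf1 and Myb, were not called. Ikzf1 (chr11:11685003-11772926, plus strand), which encodes Ikaros, had 736, 803 and 753 CPM in Ctrl and 579.9, 594 and 623 CPM in ALK. The ALK mice were all lower, with a log2 fold change of -0.35 (95% interval -0.67 to -0.03, adjusted p = 0.0905, edgeR) whose interval lay within 2-fold. Over 20 alternatives its adjusted p ran from 0.0109 (DESeq2's Wald test) to 0.191, and none called it. By edgeR it was 0.0308 with sex as covariate and 0.0471 with at least 10 counts in every library. Myb (chr10:21124935-21160984, minus strand), which keeps double-positive thymocytes alive, had 895, 910.2 and 718 CPM in Ctrl and 559, 831 and 736 CPM in ALK. The groups overlapped (log2 fold change -0.25, 95% interval -1.05 to 0.56, adjusted p = 0.637, edgeR).

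**Figure D2:**
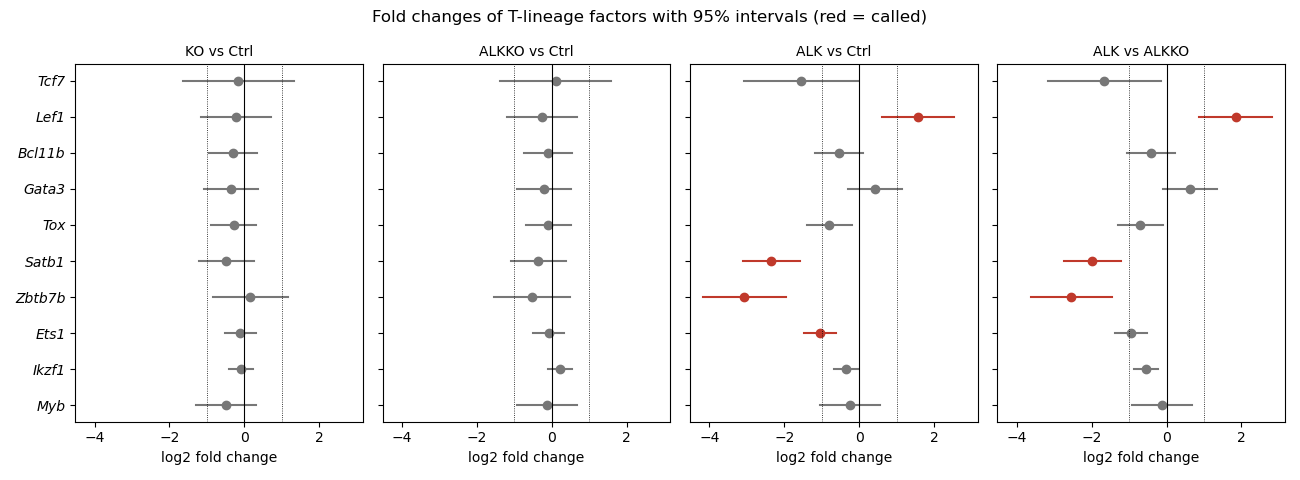
Log2 fold changes of the 10 members in 4 comparisons, with bars for the 95% interval, dotted lines at the fold threshold and called genes in red. Calls appear in the panels of ALK against Ctrl and ALK against ALKKO, and none in KO or ALKKO against Ctrl.

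The balance of the HMG-box pair shows the split among the tumors. Tcf7 per kb divided by Lef1 per kb was 1.81, 1.61 and 2.05 in Ctrl mice 1 to 3 and 2.23, 2.60 and 2.20 in ALKKO mice 1 to 3. In ALK mice 1 and 2 it was 0.073 and 0.038, so Lef1 exceeded Tcf7 13.7-fold and 26.2-fold, whereas in ALK3 it was 1.51. KO mice had ratios of 2.21, 1.11 and 2.10. ALK3 also differed in other measures: it was the oldest mouse at 31 wk, and its 6 division markers summed to 1750 CPM against 3680 and 4020 in the other tumors and 2130 to 2630 in Ctrl. Its mature T-cell markers summed to 930 CPM against 267 and 189 in ALK mice 1 and 2, and 441 to 544 in Ctrl. Its macrophage and granulocyte sum was 792 CPM against 308 and 203, and its thymic epithelium sum 157 against 7.59 and 68.8. Its stroma and endothelium sum was the lowest of the tumors, 835 CPM against 1450 and 960. Their part in the split was not tested. The ratio has no test, since the pair was singled out after its values were seen.

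**Figure D3:**
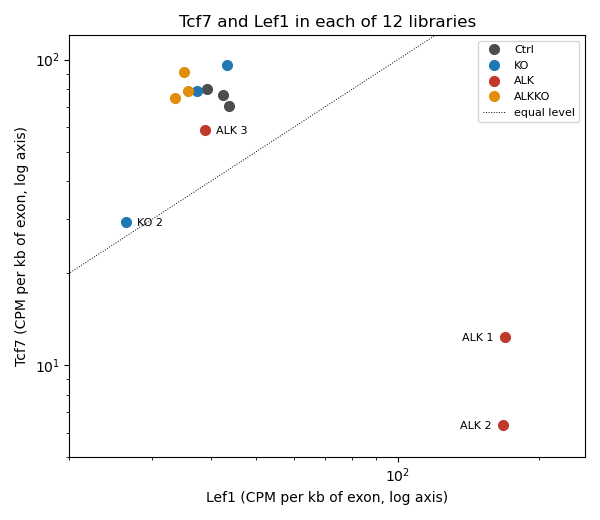
Tcf7 against Lef1 in CPM per kb of exon for each of 12 libraries, both axes logarithmic, with the dotted line at equal levels. ALK mice 1 and 2 lie below the line at high Lef1, and ALK3 lies above it near the thymus libraries.

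The second question was whether loss of Dnmt1 alone moved these genes in thymocytes. In KO against Ctrl, 0 of 10 members passed edgeR's quasi-likelihood test and the fold threshold, as did 0.0187% of all genes. DESeq2's Wald test also called 0 members, and 0 had an unadjusted edgeR p under 0.05. The log2 fold changes ran from -0.49 to 0.16, with 95% intervals reaching from -1.64 to 1.32, and the interval lay within 2-fold in 4 members, Bcl11b, Tox, Ets1 and Ikzf1. For the other 6 the interval reached past 2-fold. Satb1 had 2538, 949 and 2422 CPM in KO mice 1 to 3, Myb had 809.6, 245 and 742 CPM, and Bcl11b had 667, 262 and 679 CPM. In each of these KO2 was low and the other KO mice were near Ctrl. Tcf7 with 251, 77.2 and 207 CPM, Tox with 123, 51.1 and 117 CPM and Gata3 with 80.8, 38.6 and 82.3 CPM were also lowest in KO2. The same held for Lef1 with 380.5, 232 and 329 CPM, Ets1 with 1816, 1112 and 1609 CPM, and Ikzf1 with 835, 587 and 745 CPM. Zbtb7b was the exception, with 54.5, 97.6 and 39.8 CPM, KO2 being the highest.

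Relative to the mean of the other KO mice, KO2 held 31.5% to 74.4% of 9 members and 207% of Zbtb7b. Of general T-cell genes it held 46.6% of Cd3e, 45.7% of Lck, 39.7% of Thy1 and 24.6% of Dntt, beside the B-cell sum of 2070 CPM. Markers of mature T cells summed to 1280 CPM in KO2 against 418 and 573 in the other KO mice, and the macrophage and granulocyte sum was 2230 CPM against 429 and 619. Their part in the values of KO2 was not tested. Without KO2, the log2 fold changes of KO against Ctrl lay between -0.28 and 0.20, and 6 members changed sign.

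**Figure D4:**
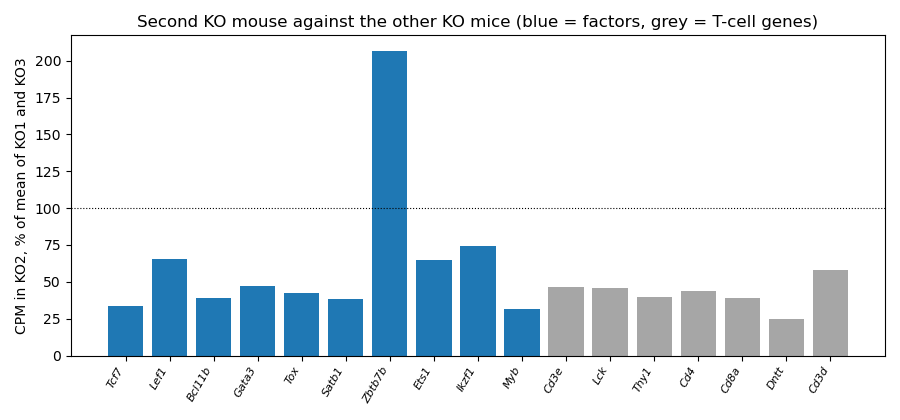
CPM in KO2 as a percentage of the mean of KO mice 1 and 3, for the 10 members (blue) and 7 T-cell genes (grey), with the dotted line at 100%. Zbtb7b is the single bar above the line, and the other members and the T-cell genes lie below it.

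The third question was where the members stood in NPM-ALK thymocytes that lacked Dnmt1. In ALKKO against Ctrl, edgeR's test called 0 of 10 members against 0.181% of all genes. None had an unadjusted p under 0.05, and DESeq2's Wald test called 0. The comparisons of ALK, KO and ALKKO with Ctrl share the same 3 Ctrl mice. The log2 fold changes lay between -0.52 (Zbtb7b) and 0.21 (Ikzf1), and 6 of 10 intervals lay within 2-fold. Satb1 had 2291, 2107 and 2042 CPM in ALKKO, below all Ctrl mice, with a log2 fold change of -0.36 (95% interval -1.09 to 0.37). Lef1 was likewise below Ctrl in all mice, with 295, 308 and 314 CPM, and Ikzf1 above it with 932, 839 and 882 CPM. These 3 of 10 members without overlap compare with 17.5% of all genes. Zbtb7b had 30.3, 52.9 and 36.3 CPM in ALKKO, overlapping Ctrl in ALKKO mouse 2. Tcf7 with 197, 239.5 and 207 CPM and Ets1 with 1616, 1517 and 1490.2 CPM overlapped Ctrl as well. Bcl11b (651, 534 and 656 CPM), Gata3 (76.3, 65.3 and 81.5 CPM), Tox (114, 94.8 and 122 CPM) and Myb (842, 656 and 833 CPM) each overlapped Ctrl too, with ALKKO mouse 2 the lowest of its group.

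Against KO, the group that shares the Dnmt1 deletion, 0 of 10 members were called in ALKKO (0.00623% of all genes). None had an unadjusted p under 0.05, DESeq2's Wald test called 0, and the interval lay within 2-fold in 7 members. The log2 fold changes ran from -0.68 (Zbtb7b) to 0.38 (Myb). Without KO2 they ran from -0.24 (Zbtb7b) to 0.16 (Ikzf1), and 6 members changed sign, so the directions of these small values rest on KO2.

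The fourth question set NPM-ALK cells with and without Dnmt1 side by side, tumor cells on the one hand and thymocytes on the other. In ALK against ALKKO, Satb1 and Zbtb7b were lower and Lef1 was higher, 3 of 10 members against 19.6% of all genes. By direction, 1 was called higher against 7.03% and 2 lower against 12.6%. Satb1 was 3.96-fold lower (log2 fold change -1.99, SE 0.342, adjusted p = 0.00288, edgeR) and Zbtb7b 5.84-fold lower (-2.55, SE 0.489, adjusted p = 0.00467, edgeR). Lef1 was 3.59-fold higher (1.85, SE 0.438, adjusted p = 0.0117, edgeR), with ALK3 at 342 CPM still above the highest ALKKO mouse at 314 CPM. With the adjusted p alone 5 members passed, against 28.1% of all genes. The further ones were Ets1 (-0.96, adjusted p = 0.00543, edgeR) and Ikzf1 (-0.56, adjusted p = 0.0168, edgeR), both lower in every ALK mouse. Ets1 was called without ALK mouse 2 (-1.01) and without ALK3 (-1.04). Tcf7 had a log2 fold change of -1.66 (adjusted p = 0.0942, edgeR) and was not called in 17 of 20 alternatives. These included leaving out ALK mouse 1 (-1.31, adjusted p = 0.206, edgeR) or ALK mouse 2 (-1.22, adjusted p = 0.183, edgeR). Without ALK3 it was -3.13 (adjusted p = 0.00201, edgeR) and was called. DESeq2's Wald test (-1.69, adjusted p = 0.0337) and the age covariate (-3.12, adjusted p = 0.0172) called Tcf7 here too, and the call of Lef1 was lost with only the ALK and ALKKO libraries in the fit (adjusted p = 0.0636). This comparison shares its ALK mice with that against Ctrl, so the pair of results is not independent.

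The design also allows the effect of NPM-ALK with Dnmt1 intact (ALK against Ctrl) to be set against its effect with Dnmt1 deleted (ALKKO against KO). The difference was called for Satb1, Zbtb7b and Ets1, all lower, 3 of 10 members against 8.93% of all genes in either direction and 5.62% lower. For Satb1 the effects were -2.35 and 0.12, a difference of -2.47 (SE 0.473, adjusted p = 0.0128, edgeR), which was also called without KO2 (-2.17, adjusted p = 0.00231). For Zbtb7b they were -3.07 and -0.68, a difference of -2.38 (SE 0.659, adjusted p = 0.0462, edgeR), and -2.86 without KO2 (adjusted p = 0.0252). For Ets1 they were -1.04 and 0.03, a difference of -1.07 (SE 0.269, adjusted p = 0.0339, edgeR), and without KO2 the -0.92 no longer passed the fold threshold. Leaving out any 1 library other than KO2 and ALK3 lost the call of Zbtb7b, and any other than KO mouse 1 and ALK3 that of Ets1, with adjusted p up to 0.101 and 0.0820 over the alternatives. Without ALK3, Lef1 (2.02, adjusted p = 0.00182) and Tcf7 (-3.30, adjusted p = 0.00891) were called as well. The other 18 of 19 alternatives called neither. With all libraries, Lef1 (1.62, adjusted p = 0.114, edgeR) and Tcf7 (-1.82, adjusted p = 0.243, edgeR) were not called. The other 5 members were not called either, with adjusted p from 0.0709 for Ikzf1 to 0.748 for Gata3.

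Genes whose pattern over the 12 libraries was most like each member were found by the root mean square difference (RMS) of log2(CPM + 1) after subtracting the Ctrl mean. Satb1 was nearest to Mr1 (RMS 0.194) and Itm2a (0.209), and Zbtb7b to Bin1 (0.325) and Pacsin1 (0.334). Lef1 was nearest to Siva1 (0.202), which went from 27.3 CPM in Ctrl to 68.0 CPM in ALK, and to Exoc3l4 (0.309). Tcf7 was nearest to Art4 (0.316), which had 36.2 CPM in Ctrl and 9.99 CPM in ALK, and to Klhdc8a (0.363). The first neighbors of Tcf7 and Zbtb7b were the most distant ones among the 10 members. Bcl11b was nearest to Zfp422 (0.137) and to Cd3e (0.147), a chain of the T-cell receptor complex. Gata3 was nearest to Edem1 (0.165) and Nbdy (0.216), Ikzf1 to Nr2c2 (0.093) and Zfp983 (0.094), and Myb to Sh2d1a (0.20) and 2700081O15Rik (0.204). Tox was nearest to Zfp280d (0.148) and Anks4b (0.160), and Ets1 to Trav13-1 (0.118) and Hpse2 (0.123). Anks4b, Trav13-1 and Hpse2 averaged 0.784 to 1.21 CPM in Ctrl, where the added 1 compresses differences, so their likeness is on that scale only. Among the members themselves Bcl11b and Tox were the closest pair (0.164) and Lef1 and Zbtb7b the most distant (2.38).

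The surrounding pathway was read from 6 lists of related genes, each described by its counts and median in ALK against Ctrl, where 20.4% of all genes were called and their median was 0.05. Among 27 other T-lineage specification and commitment factors, 6 were higher and 3 lower, with a median log2 fold change of -0.12. The largest rises were those of the Notch target Dtx1 (25.9 ± 5.66 CPM in Ctrl and 277 ± 301 in ALK, log2 fold change 3.42), of the receptor Notch1 (225 ± 7.83 and 2388 ± 1540, 3.41) and of Runx1 (160.0 ± 14.8 and 565 ± 176, 1.82). Genes that fell included Bach2 (38.5 ± 10.2 and 8.94 ± 2.79, -2.11) and Runx3, a factor of the CD8 fate (26.4 ± 4.53 and 6.19 ± 4.54, -2.08). Adjusted p for these 5 genes were 0.000553 to 0.0318 by edgeR.

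Of 22 tested T-cell genes that are turned on at and after commitment, 0 were called higher and 10 lower, with a median of -1.78. Tcrg-C1, a T-cell receptor gamma constant gene, had 35.0 ± 7.71 CPM in Ctrl and was at least 150.0-fold lower in ALK, where it had 2 reads over all 3 libraries and the floor of 3 reads per library equals 0.233 CPM. Cd5 had 248.6 ± 23.6 CPM in Ctrl and 1.73 ± 0.819 in ALK, and the coreceptor gene Cd8b1 had 1524 ± 174 and 19.2 ± 11.0. Rag1, a gene that double-positive thymocytes use, was listed at 0 in all libraries. A 0 in every library can come from the counting, which was not tested, and it is not read as absence of the transcript. Of 17 progenitor genes tested that are normally shut off at commitment, 0 were higher and 4 lower in ALK, with a median of -0.39. The deepest falls there were Hoxa7 (3.60 ± 0.946 CPM in Ctrl and 0.167 ± 0.146 in ALK), Bcl11a (6.95 ± 0.625 and 0.871 ± 0.959) and Meis1 (10.3 ± 3.98 and 1.49 ± 0.949). The ALK mean of Hoxa7 lay under the floor of 0.233 CPM, so its level there is near the counting limit.

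Innate and natural killer genes, which Bcl11b restrains in thymocytes, included 0 of 15 higher and 7 lower in ALK. Their median was -2.60 as fitted and -0.62 with the 3 genes at or under 3 reads in every ALK library set to their bound. Klrb1c had 5.49 ± 2.26 CPM in Ctrl and 0.187 ± 0.143 in ALK, where its mean lay under the floor of 0.233 CPM and is near the counting limit. Zbtb16, which encodes the innate-like lymphocyte factor PLZF, had 11.9 ± 6.95 and 0.509 ± 0.318. Gzmb, at 1.53 ± 0.529 CPM in Ctrl, was at least 6.59-fold lower. Among 19 paralogs of the members, 0 were higher and 3 lower with a median of -0.23: Tox3 was at least 20.7-fold lower, Ets2 had 639 ± 44.5 CPM in Ctrl and 130.0 ± 95.9 in ALK, and Bcl11a is given above. Of 16 partner proteins and corepressors tested, 1 was higher and 2 lower with a median of 0.11, namely Runx1, Jup (145 ± 14.2 and 29.4 ± 28.2 CPM) and Tle4 (42.2 ± 4.43 and 8.70 ± 7.10 CPM). Ikzf5 and Zfpm1 were likewise listed at 0 in all libraries.

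In KO against Ctrl, ALKKO against Ctrl and ALKKO against KO, 0 genes of any of the 6 lists were called by edgeR. The medians in KO against Ctrl were 1.17 for the progenitor genes and 0.68 for the innate and natural killer genes, and in ALKKO against Ctrl they were 0.23 and -0.05. KO2, with its high B-cell and macrophage sums, is in the former pair of medians.

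**Figure D5:**
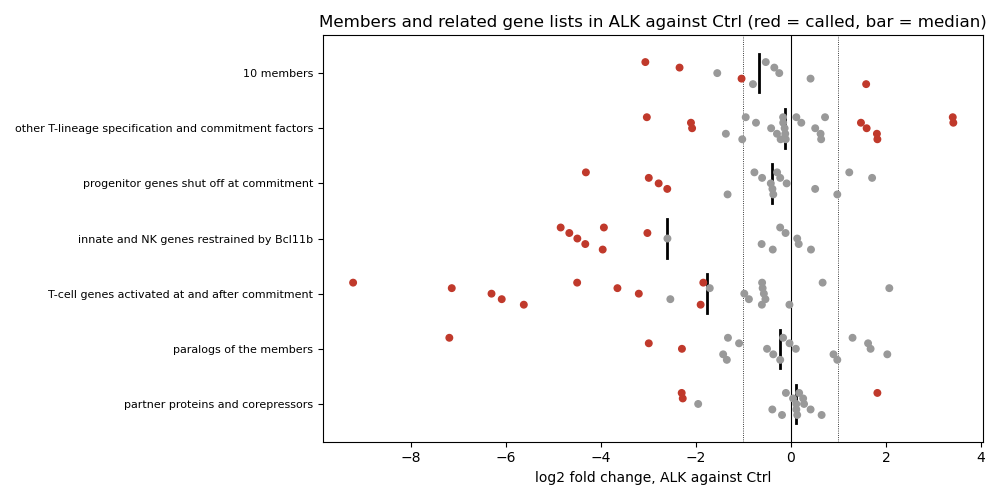
Log2 fold changes in ALK against Ctrl for the 10 members and for the tested genes of 6 related lists, 1 point per gene, called genes in red and a bar at each median. The medians of the T-cell genes and of the innate and natural killer genes lie below -1, and the points of the members lie between -3.07 and 1.58. Values of genes at or under 3 reads in every ALK library are fitted and are not bounds.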

How the data were processed

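RNA of 12 mice was analysed, 3 per group, with groups, ages and sexes taken from the sample labels. The authors prepared stranded poly(A) libraries, aligned reads to mm10 with STAR and deposited raw HTSeq counts per gene without normalization. Reads shared between genes are in no count. The submitters' processing notes also name Trim Galore, FastQC, Picard 2.19.2 and DESeq2. Versions of the aligner and counter are not given in the sources used here. Of 50600 gene IDs, 50376 matched GENCODE M21 without the version number. Libraries held 12473857 to 18864327 reads on genes, and chi-square over its degrees of freedom was 14.6 to 226 between libraries of a group, so no pair agreed within sampling noise.

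Counts were scaled by TMM (factors 0.913 to 1.06), filtered by filterByExpr and tested with edgeR 4.0.16 in R 4.3.3 (quasi-likelihood, robust, 1 term per group over 12 libraries, biological coefficient of variation 0.436). Benjamini-Hochberg adjustment covered all 16052 genes tested, and calls needed an adjusted p under 0.05 plus a change beyond 1 in log2 units. Standard errors and 95% intervals were derived from the test statistic. Folds against a group at or under 3 reads per library are lower bounds, and such floors cover counting error only. An exact permutation test of 3 mice against 3 cannot give a p below 0.1, so none is given. The alternatives were DESeq2 1.42.0, its size factors, other low-count filters, a replicate block, sex or age as covariate, the compared groups alone and each library left out. The script was also tested on simulated data. There, in ALK against Ctrl, it recovered 6 of 100 genes changed 2-fold and 60 of 100 changed 4-fold, with 0 other calls. The absence of a call is therefore not read as absence of a change. Tables and plots used Python 3.11.15 with pandas 2.3.3.

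Members and lists were chosen with earlier results of these data known. The genes named were the 10 members, the 2 genes nearest to each in profile, per list at most the 3 largest rises and 3 largest falls among called genes, and Dnmt1 and Alk, and 1 gene that the rule names is not reported here. The T-cell genes set beside the second KO mouse were chosen after its values were seen.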

Additional observations from a re-analysis of the deposited data

Results flagged for a closer look

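In 3 members the effect of NPM-ALK with Dnmt1 intact (ALK against Ctrl) differed from its effect with Dnmt1 deleted (ALKKO against KO) by the interaction test of edgeR. The difference was -2.47 on the log2 scale for Satb1, -2.38 for Zbtb7b and -1.07 for Ets1. Over 19 alternatives Satb1 kept its call in all, Zbtb7b lost it in 13 and Ets1 in 12. In all 3 genes the tumors were lower than Ctrl, and in ALKKO against KO none was called. ALK samples were tumor cells and ALKKO samples thymocytes, so tumor state and Dnmt1 status cannot be told apart in this difference.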

How the results depend on the processing

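Of 1190 values of single members under 20 alternatives, 1115 kept their direction and side of the thresholds, 33 lost a call, 12 gained one and 30 changed sign. In ALK against Ctrl, 4 members were called, and leaving out 1 mouse gave 2 (without ALK mouse 1) to 5 (without ALK mouse 3). In ALK against ALKKO the count of 3 became 5 under the age covariate and 2 with only the compared groups (Satb1 and Zbtb7b), and it was 3 to 5 without 1 mouse. For the difference of NPM-ALK effects the count of 3 became 1 with the replicate block, and 1 to 5 without 1 mouse. Deviations of same-numbered libraries correlated at -0.106 to 0.426 over 18 pairs, and those of other pairs at -0.457 to 0.208. The highest were KO mouse 1 with ALKKO mouse 1 (0.426) and KO2 with ALKKO mouse 2 (0.242). The replicate block moved no other count of members.

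All sign changes were in values without a call. In KO against Ctrl, the sex covariate, which removes KO2, gave 0.20 for Tcf7, 0.03 for Bcl11b, 0.02 for Tox, -0.28 for Zbtb7b, 0.07 for Ets1 and 0.05 for Ikzf1, and the age covariate gave 0.11 for Tcf7. Leaving out 1 mouse there gave -0.50 to 0.20 for Tcf7, -0.53 to 0.03 for Bcl11b, -0.50 to 0.03 for Tox, -0.28 to 0.40 for Zbtb7b, -0.27 to 0.07 for Ets1 and -0.21 to 0.05 for Ikzf1. In ALKKO against KO, the sex covariate gave -0.09 for Tcf7, -0.13 for Bcl11b, -0.13 for Gata3, -0.12 for Tox, -0.21 for Satb1 and -0.15 for Ets1, and the age covariate 0.17 for Lef1. Leaving out 1 mouse there gave -0.09 to 0.60 for Tcf7, -0.21 to 0.13 for Lef1, -0.13 to 0.41 for Bcl11b, -0.13 to 0.33 for Gata3, -0.12 to 0.40 for Tox, -0.21 to 0.35 for Satb1 and -0.15 to 0.18 for Ets1. In ALK against ALKKO, Myb ranged from -0.28 to 0.03. The lowest member, Zbtb7b, had 49 to 1208 reads per library, and with 3 mice per group the spread between mice sets the intervals given.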
